A study of Mus musculus with 6 samples.

Results

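The genes described are 9 of the 19919 named genes measured on the arrays: the lysozymes Lyz1 and Lyz2, the lectins Reg3b and Reg3g, the calprotectin subunits S100a8 and S100a9, lactoferrin (Ltf), cathelicidin (Camp) and the dual oxidase Duox2. They were found by the gene symbol of their probe set, and all 9 had one. The set was selected on a family of defence proteins after the dexamethasone and control values of these same arrays were known, Lyz1 being the largest rise in the data. The differences of these 9 genes between the groups are therefore a description, without a test of their own. RNA came from the gastric corpus, the part of the stomach that secretes acid. The animals were wildtype Balb/c females 8 to 12 weeks old. In the dexamethasone group (3 arrays) the mice drank the synthetic glucocorticoid at 50 mg per litre for 3 days, with the solution renewed on day 2. The control group (3 arrays) had no treatment. Per the labels the 3 samples within a group are biological replicates, and it is not stated whether a sample is 1 mouse or a pool.

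Antimicrobial proteins are secreted by epithelia and by phagocytes to limit microbes at mucosal surfaces. Lysozymes cut the peptidoglycan of bacterial walls. The mouse has a pair of close lysozyme genes, Lyz1, known from Paneth cells of the small intestine, and Lyz2, known from macrophages and neutrophils. Reg3 lectins bind bacteria and are secreted by gut epithelium, calprotectin and lactoferrin withhold metals, cathelicidin disrupts membranes, and the dual oxidase releases hydrogen peroxide at the apical cell surface. Glucocorticoids act through a receptor that binds DNA and that can raise or lower the transcription of target genes.

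The arrays were alike in overall level, with medians between 7.96 and 8.00 on the log2 scale. Corpus markers such as the proton pump genes Atp4a and Atp4b were bright in all 6 arrays, with Atp4a between 13.78 and 13.89. Of 11 corpus markers 0 passed a threshold of 0.05 on limma's adjusted p, and before adjustment 3 had a p under 0.05, 1 of them higher and 2 lower under dexamethasone. The lower genes were Tff2 (log2 change -0.61, SE 0.16, limma adjusted p = 0.130) and Muc5ac (-0.29, adjusted p = 0.190). The higher gene was Kcnq1 (0.18, adjusted p = 0.315). The log2 changes of this list ran from -0.81 to 0.18. Over all 19919 genes, 2612 had an unadjusted p under 0.05, 1190 higher and 1422 lower, to be read beside such counts in each list. The forestomach next to the corpus is lined by squamous epithelium, and 20 markers of it were averaged per array. That mean was 9.95, 9.96 and 8.36 in the dexamethasone arrays, in replicate order, against 8.28, 9.75 and 8.41 in the controls, so it varied inside each group. Of the 20, 1 rose and 19 did not pass, and before adjustment 3 were higher and 0 lower with a p under 0.05. The riser was Krt6a, a keratin of activated squamous cells, at 7.79, 7.98 and 7.80 in dexamethasone arrays, against 7.09, 7.46 and 7.20 in controls (log2 change 0.61, SE 0.11, limma adjusted p = 0.0362). The other 2 were the basal cell keratins Krt5 and Krt14. Krt5 stood at 11.24, 11.39 and 9.77 in dexamethasone arrays, against 8.24, 10.38 and 8.54 in controls (log2 change 1.75, SE 0.61, limma adjusted p = 0.270), and Krt14 differed between the groups by 1.08 on the log2 scale (SE 0.36, adjusted p = 0.246). The groups overlapped for both. The median log2 change of this list was 0.57. Krt6a did not pass without dexamethasone replicates 1 or 2 (adjusted p = 0.118 and 0.168) or control replicates 1 or 3 (0.0550 and 0.189). In bulk tissue, more cells of a type and more RNA per cell cannot be told apart.

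Sequence is shown for the neighbouring genes whose levels differed most, the lysozyme pair and Duox2 with Duoxa2, its maturation factor. RefSeq (GRCm38.p6) windows matched 9 of the 9 genes. The bases printed are the 250 before each gene's start, 5′ to 3′ on the gene's strand. Capitals mark the glucocorticoid receptor half-site AGAACA, searched on both strands. Lyz1 lies at chr10:117292869-117293118 and Lyz2 at chr10:117282273-117282522, both on the minus strand. Duox2 lies at chr2:122298228-122298477 on the minus strand and Duoxa2 at chr2:122298650-122298899 on the plus strand.
Lyz1: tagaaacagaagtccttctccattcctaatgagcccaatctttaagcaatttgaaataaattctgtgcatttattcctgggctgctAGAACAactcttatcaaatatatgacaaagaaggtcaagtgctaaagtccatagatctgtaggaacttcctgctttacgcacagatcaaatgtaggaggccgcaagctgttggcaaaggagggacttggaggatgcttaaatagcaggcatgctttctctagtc
Lyz2: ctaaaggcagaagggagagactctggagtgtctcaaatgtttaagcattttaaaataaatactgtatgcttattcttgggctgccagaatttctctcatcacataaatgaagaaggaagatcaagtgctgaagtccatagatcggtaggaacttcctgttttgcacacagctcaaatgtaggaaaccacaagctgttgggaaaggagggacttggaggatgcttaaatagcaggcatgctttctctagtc
Duox2: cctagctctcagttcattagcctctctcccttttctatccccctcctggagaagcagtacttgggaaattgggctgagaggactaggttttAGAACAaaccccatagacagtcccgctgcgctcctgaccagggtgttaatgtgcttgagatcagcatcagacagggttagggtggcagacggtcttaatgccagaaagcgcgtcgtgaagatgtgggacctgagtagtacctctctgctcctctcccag
Duoxa2: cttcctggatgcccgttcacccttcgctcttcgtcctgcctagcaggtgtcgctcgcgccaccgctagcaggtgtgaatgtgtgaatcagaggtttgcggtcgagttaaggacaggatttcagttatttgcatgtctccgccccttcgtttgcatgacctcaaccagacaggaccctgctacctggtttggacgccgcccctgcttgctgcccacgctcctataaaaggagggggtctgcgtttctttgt

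The lysozyme windows were alike, with 79.4% identical positions over an alignment of 252, and with 92 of the 100 bases nearest the start identical. The half-site was found in the Lyz1 window, 164 bases before the start, and not in the Lyz2 window. It was also found in the Duox2 window, 159 bases before the start, and not in the Duoxa2 window. Among the other members only Reg3b held it. The letters occur in 16.1% of the 32851 windows of the same length in the table, so a match is a description of the sequence and not a binding site. Duox2 and Duoxa2 are transcribed in opposite directions from starts 673 bases apart.

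Lyz1 differed most between the groups, and was higher under dexamethasone. It stood at 11.61, 11.96 and 9.45 on the log2 scale in the dexamethasone arrays, against 7.60, 7.72 and 7.55 in the controls. All 3 treated arrays were above all controls, and they were far apart from each other. Relative to the control mean, Lyz1 was 15.9-fold higher in dexamethasone replicate 1, 20.3-fold in replicate 2 and 3.56-fold in replicate 3. The means were 11.01 ± 1.36 in dexamethasone arrays and 7.62 ± 0.087 in controls (SD, n = 3 each), a log2 change of 3.39 (SE 0.57) or 10.5-fold. The change was 4.17 without dexamethasone replicate 3 and 2.91 without dexamethasone replicate 2.

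Lyz2 differed little in the same arrays. It stood at 10.40, 10.37 and 9.90 in the dexamethasone arrays, against 9.98, 10.03 and 10.27 in the controls. The groups overlapped and the log2 change was 0.13 (SE 0.14). Lyz1 and Lyz2 are close enough in sequence for probes to be shared, so the split of signal between them is uncertain. Probe sequences were not used here, so probe sharing was not checked.

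The 2 dexamethasone arrays with the highest Lyz1 were also the 2 with the highest squamous marker mean. Control replicate 2 had a squamous mean of 9.75 and a Lyz1 level of 7.72, close to the other controls at 7.60 and 7.55. With the squamous mean as a covariate the log2 change of Lyz1 was 2.86, and that of Lyz2 was 0.04. Only 1 control array had a high squamous mean, and the part of squamous tissue in the Lyz1 value was not tested.

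**Figure D1:**
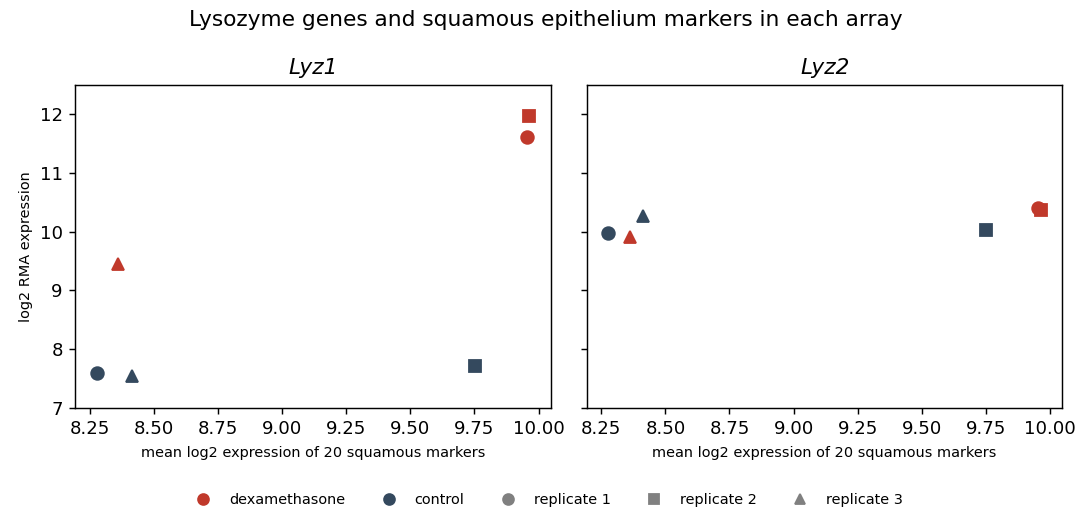
Log2 RMA expression of Lyz1 (left) and Lyz2 (right) plotted against the mean log2 expression of 20 squamous epithelium markers, 1 point per array, with colour for the group and marker shape for the replicate number. Lyz1 of the 3 dexamethasone arrays lies between 9.45 and 11.96, above the controls at 7.55 to 7.72, including control replicate 2 with its squamous mean of 9.75, while Lyz2 overlaps between the groups.

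The other Paneth cell genes measured gave no call. Of 6 Paneth cell markers measured, 0 passed (limma) and 0 had an unadjusted p under 0.05. Itln1, a granule lectin, stood at 6.28, 6.37 and 6.29 in the dexamethasone arrays, against 6.23, 6.28 and 6.29 in controls. Defa24, an alpha-defensin, stood at 5.44, 5.14 and 5.64 in the dexamethasone arrays, against 5.44, 5.37 and 5.49 in controls. Both were dim in all arrays. Defa24 was the only alpha-defensin of the list with a named probe set. Pnliprp2, a lipase that is not limited to Paneth cells, had a log2 change of -0.72 (SE 0.47, limma adjusted p = 0.597). Of 14 markers of intestine and antrum 0 passed (limma), with 3 higher at an unadjusted p under 0.05, and their mean level was 7.80 to 7.85 in dexamethasone arrays and 7.79 to 7.90 in controls. Of 8 other lysozyme family genes 0 passed (limma), with 2 higher at an unadjusted p under 0.05. These were Lalba, the milk protein alpha-lactalbumin, with a log2 change of 0.20 (SE 0.067, adjusted p = 0.241), and Lyzl6, known from testis, with 0.14 (adjusted p = 0.376).

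The macrophage and neutrophil genes give the setting for Lyz2, S100a8, S100a9, Ltf and Camp, which are abundant in those cells. Of 18 neutrophil markers 0 passed (limma) and 0 had an unadjusted p under 0.05. The 3 of smallest p were Retnlg (log2 change -0.13, groups not overlapping), Mmp9 (-0.12) and Stfa2 (-0.12), all lower. The log2 changes of this list ran from -0.16 to 0.061. Ly6g, a neutrophil surface protein, stood at 5.82, 5.90 and 5.87 in dexamethasone arrays, against 5.73, 5.94 and 5.79 in controls. It was dim, at percentile 3.20 of brightness over all genes, so its values say little. The mean over the neutrophil list was 6.60 to 6.66 in the dexamethasone arrays and 6.62 to 6.72 in the controls. Of 15 macrophage markers, 1 rose, 0 fell and 14 did not pass, and before adjustment 3 were higher and 2 lower with a p under 0.05. The riser was Cd163, a scavenger receptor for haemoglobin, which stood at 8.62, 8.88 and 8.88 in the dexamethasone arrays, against 7.72, 7.63 and 7.62 in controls (log2 change 1.14, SE 0.085, n = 3 arrays a group, adjusted p by limma = 0.00147). Adgre1, which encodes the macrophage antigen F4/80, differed between the groups by -0.22 on the log2 scale (SE 0.061, adjusted p = 0.163), and the complement gene C1qb by 0.21 (adjusted p = 0.192). The mean over the macrophage list was 8.18 to 8.27 in dexamethasone arrays and 8.08 to 8.15 in controls.

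The calprotectin genes were close to the dim end of the arrays. S100a8 stood at 6.43, 6.37 and 6.28 in the dexamethasone arrays, against 6.22, 6.09 and 6.16 in controls. Every treated array was above every control, by a margin of 0.058 (log2 change 0.20, SE 0.068). S100a9, its binding partner, stood at 6.82, 6.86 and 6.90 in the dexamethasone arrays, against 6.68, 6.81 and 6.80 in controls, and the groups were apart by 0.013 (log2 change 0.10, SE 0.064). In brightness, the mean over the 6 arrays, S100a8 lay at percentile 8.67 of all genes and S100a9 at percentile 19.8. RMA compresses differences at this end of the scale, so these small differences bound the change of the RNA poorly.

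Ltf and Camp did not separate the groups. Ltf, an iron-binding protein of secretions and neutrophil granules, stood at 8.02, 7.89 and 7.66 in dexamethasone arrays, against 7.43, 8.36 and 7.81 in controls. Its controls spanned a wider range than the treated arrays, and the log2 change was -0.01 (SE 0.22). Camp stood at 7.27, 7.09 and 7.08 in dexamethasone arrays, against 7.14, 7.33 and 7.18 in controls (log2 change -0.07, SE 0.081).

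The Reg3 lectins were dim as well, at percentile 14.6 of brightness for Reg3b and 11.2 for Reg3g. They are close relatives, and probe sharing between them was not checked either, so their separate values are uncertain. Reg3b stood at 6.64, 6.58 and 6.48 in dexamethasone arrays, against 6.55, 6.62 and 6.58 in controls, and the groups overlapped (log2 change -0.02, SE 0.065). Reg3g stood at 6.35, 6.30 and 7.25 in dexamethasone arrays, against 6.23, 6.05 and 6.19 in controls. The groups did not overlap, but dexamethasone replicate 3 alone was well above the rest, at 2.13-fold over the control mean. The log2 change of 0.47 (SE 0.23) was 0.17 without that array. Replicate 3 was the treated array with the lowest Lyz1 and the lowest squamous mean. The goblet cell lectin gene Zg16 was highest there too, with 6.74, 7.13 and 7.35 in dexamethasone arrays, against 6.56, 6.68 and 6.37 in controls (adjusted p = 0.171 by limma), and Fabp1, a fatty acid binding protein of enterocytes, stood at 6.81, 6.98 and 7.91 in dexamethasone arrays, against 7.22, 6.34 and 6.68 in controls. The 14 intestine and antrum markers, Fabp1 included, averaged 7.85, 7.80 and 7.85 in dexamethasone arrays, against 7.85, 7.79 and 7.90 in controls. That mean was not highest in dexamethasone replicate 3. The 3 genes of smallest p in that list were not highest there either. In dexamethasone arrays Lct stood at 7.30, 7.33 and 7.22, Tff3 at 8.35, 8.21 and 8.27, and Alpi at 7.18, 7.16 and 7.12. The part of Zg16 and Fabp1 in the Reg3g value was not tested.

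Duox2 was lower under dexamethasone. It stood at 8.04, 8.59 and 9.12 in the dexamethasone arrays, against 9.33, 9.66 and 10.08 in controls. The groups did not overlap, with a gap of 0.21, and both were widely spread. The means were 8.58 ± 0.54 in dexamethasone arrays and 9.69 ± 0.38 in controls (SD, n = 3 each), a log2 change of -1.11 (SE 0.28), or 2.16-fold lower. Relative to the control mean, Duox2 was 3.15-fold lower in dexamethasone replicate 1, 2.15-fold lower in replicate 2 and 1.49-fold lower in replicate 3.

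Duoxa2, which brings the oxidase to the cell surface and is transcribed away from Duox2, was not among the 9 genes and fell in the fit over all genes. It stood at 7.82, 7.94 and 7.76 in the dexamethasone arrays, against 8.71, 8.63 and 8.82 in controls (log2 change -0.88, SE 0.076, n = 3 arrays a group, adjusted p by limma = 0.00240). The spread within each group was far smaller than the difference, and it passed whichever array was left out (highest adjusted p 0.0225). The paralogous pair, Duox1 and Duoxa1, lies beside them in the genome. Duox1 stood at 7.34, 7.42 and 7.01 in dexamethasone arrays, against 6.83, 7.27 and 6.93 in controls (log2 change 0.24, SE 0.14, adjusted p = 0.545). Duoxa1 differed between the groups by 0.14 on the log2 scale (SE 0.12, adjusted p = 0.702).

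**Figure D2:**
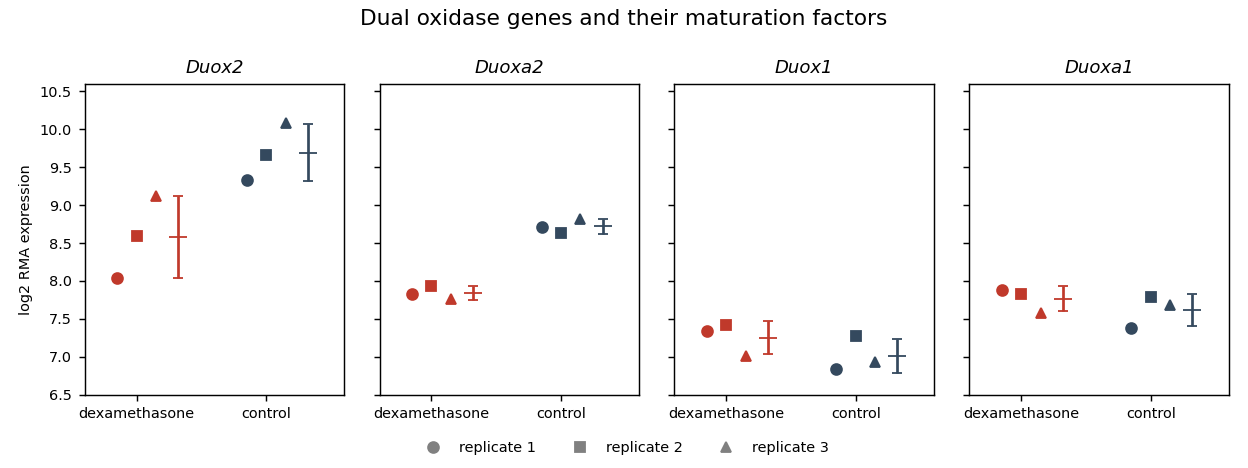
Log2 RMA expression of Duox2, Duoxa2, Duox1 and Duoxa1 in each array, dexamethasone in red and control in dark blue, with marker shape for the replicate number and the group mean ± SD (n = 3) to the right of the points. Duox2 and Duoxa2 are lower in all 3 dexamethasone arrays than in all controls, while the groups overlap for Duox1 and Duoxa1.

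Of the 15 genes of dual oxidase partners and other NADPH oxidases, 0 rose, 1 fell (Duoxa2) and 14 did not pass. Before adjustment 0 were higher and 3 lower with a p under 0.05 (limma). Cybb, the catalytic subunit of the phagocyte oxidase, stood at 8.54, 8.48 and 8.46 in dexamethasone arrays, against 8.69, 9.22 and 9.22 in controls (log2 change -0.55, SE 0.14, limma adjusted p = 0.129). Its partner subunit gene Cyba differed between the groups by -0.24 on the log2 scale (SE 0.087, adjusted p = 0.294). Cybb passed without control replicate 1 (adjusted p = 0.00556) and with array weights (0.00689).

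Of 32 other epithelial antimicrobial genes, 1 rose, 0 fell and 31 did not pass. Before adjustment 6 were higher and 0 lower with a p under 0.05 (limma). Lcn2, lipocalin 2, which binds bacterial siderophores, stood at 9.55, 9.96 and 9.50 in dexamethasone arrays, against 7.43, 7.46 and 7.35 in controls. All treated arrays were above 9 and all controls below 8 (log2 change 2.26, SE 0.12, limma adjusted p = 0.000409). Dmbt1, a scavenger protein of mucosal secretions, stood at 11.91, 12.15 and 11.27 in dexamethasone arrays, against 10.14, 10.92 and 10.73 in controls. The groups did not overlap but the gene did not pass (log2 change 1.18, SE 0.26, adjusted p = 0.0821). Dmbt1 passed without dexamethasone replicate 3 (adjusted p = 0.0237), with the squamous mean as a covariate (0.0226) and with array weights (0.00702). The median log2 change of this list was 0.051, against 0.0023 over all genes.

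Of 14 other S100 genes, 1 rose, 0 fell and 13 did not pass. Before adjustment 2 were higher and 2 lower with a p under 0.05 (limma). S100a10, the partner of annexin A2, stood at 11.64, 11.53 and 11.15 in dexamethasone arrays, against 10.38, 10.64 and 10.53 in controls (log2 change 0.93, SE 0.13, limma adjusted p = 0.0176). The call was lost without dexamethasone replicate 1 (adjusted p = 0.0741), dexamethasone replicate 2 (0.101) or control replicate 3 (0.105). S100a6, calcyclin, had the opposite sign with a log2 change of -0.49 (SE 0.13, adjusted p = 0.154). Of 28 cytokine, sensor and transcription factor genes that act upstream of these defence genes, 0 passed (limma), with 2 lower at an unadjusted p under 0.05. These were Il1b, interleukin 1 beta, at a log2 change of -0.22 (SE 0.079, adjusted p = 0.286), and Nfkbiz, a nuclear NF-kappa B regulator, at -0.24 (SE 0.099, adjusted p = 0.362). Il22 had no named probe set here. The receptor gene Il22ra1 stood at 7.17, 7.18 and 7.01 in dexamethasone arrays, against 6.64, 7.05 and 7.03 in controls.

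Counted together, 3 of the 97 related genes measured passed, 2 higher and 1 lower, which is 3.09% against 1.84% of all 19919 genes (0.798% higher and 1.04% lower). Before adjustment 10 of the 97 were higher and 7 lower with a limma p under 0.05, beside 1190 and 1422 of all 19919 genes. Among the 9 members 1 passed, Lyz1, and nothing is read from that count since the set was chosen with this contrast known. The groups did not overlap for 5 of the 9, 4 higher and 1 lower, against 18.3% of all genes (8.84% higher and 9.46% lower). Nothing is read from this count either, for the same reason. The gaps of S100a8, S100a9 and Reg3g were small, at 0.058, 0.013 and 0.071. For 6 of the 9 the log2 change was under 0.25 in size, and the median over the 9 was 0.097. The median log2 change was 0.068 over the other lysozyme genes, -0.037 over the oxidase genes, 0.024 over the other S100 genes and -8.8e-05 over the upstream genes. It was -0.032 over the Paneth cell markers, -0.014 over the neutrophil markers, 0.015 over the macrophage markers, 0.014 over the intestine and antrum markers and 0.0080 over the corpus markers. Lyz1 lost its call without control replicate 1, 2 or 3 (adjusted p = 0.0602, 0.0876 and 0.173) or dexamethasone replicate 1 or 2 (0.146 and 0.122), and Duox2 gained one without dexamethasone replicate 3 (0.0350). Leaving out an array also moved the calls over all genes, from 367 to 118, 88 and 543 without dexamethasone replicates 1, 2 and 3. Without control replicates 1, 2 and 3 they were 465, 178 and 92. The leave-out calls given above for Krt6a, S100a10, Dmbt1 and Cybb came from these same fits.

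**Figure D3:**
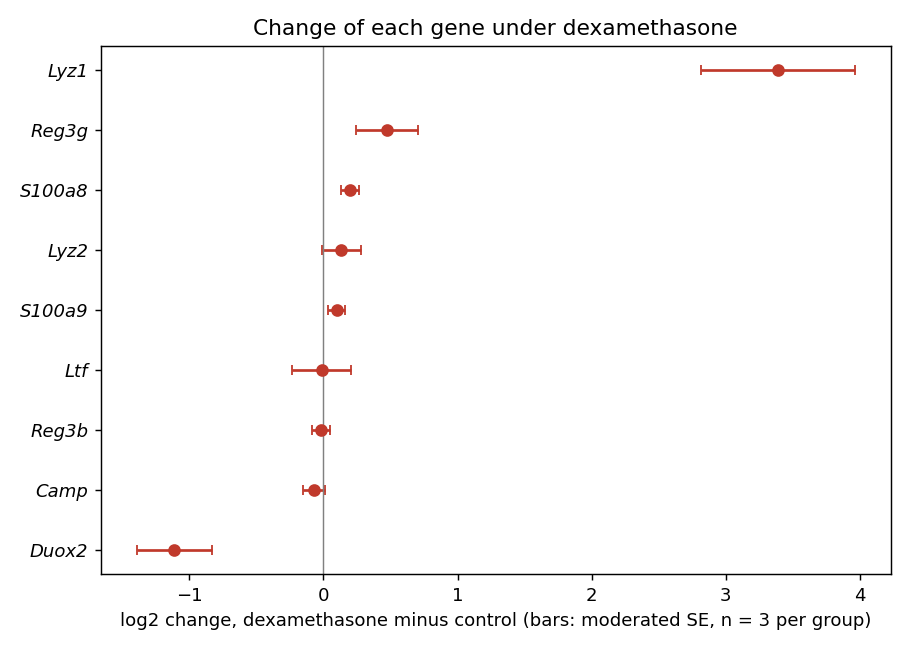
Log2 change of each of the 9 genes, dexamethasone minus control, with the moderated standard error from limma as bars (n = 3 arrays per group). Lyz1 lies at 3.39 and Duox2 at -1.11, while 6 genes lie within 0.25 of no change.

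**Figure D4:**
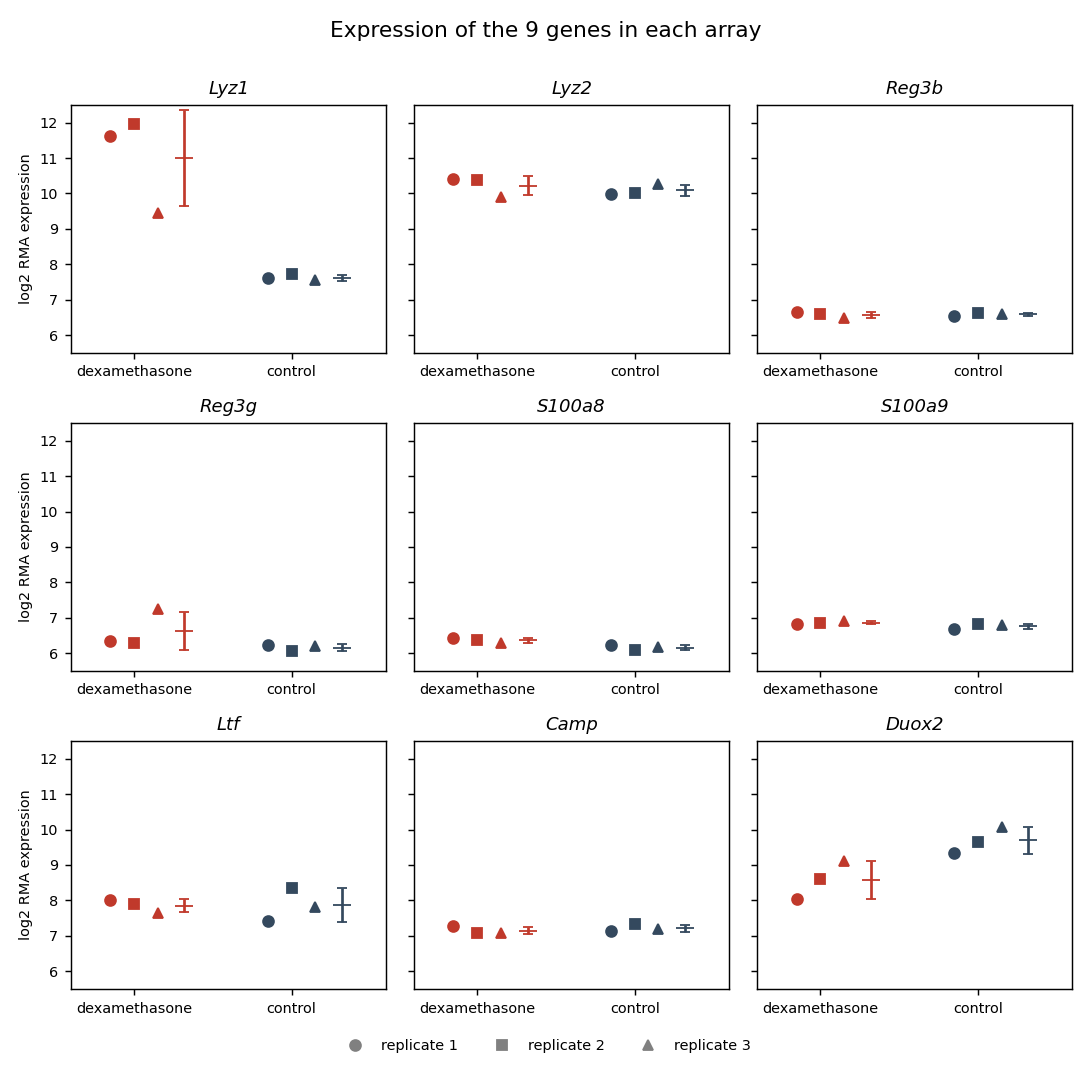
Log2 RMA expression of the 9 genes in each array on 1 shared scale, dexamethasone in red and control in dark blue, with marker shape for the replicate number and the group mean ± SD (n = 3) to the right of the points. Lyz1 is above 9 in all dexamethasone arrays and below 8 in all controls, Duox2 is lower in the dexamethasone arrays, and a single dexamethasone array stands out for Reg3g.

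Profiles like those of 3 members were looked for over all named genes, as the root mean square difference over the 6 arrays after centring each gene on its control mean. Nearest to Lyz1 were Klk1, Lcn2, Serpina3n and Fmo2, at 0.93, 1.06, 1.06 and 1.11 on the log2 scale. The distance is not scaled by size and Lyz1 is the largest rise in the data, so its nearest genes are other large risers. None of these 4 had the low dexamethasone replicate 3 of Lyz1 to the same degree: Klk1, tissue kallikrein, lay 2.40, 2.75 and 2.06 above its control mean in dexamethasone replicates 1, 2 and 3, where Lyz1 lay 3.99, 4.34 and 1.83 above. Nearest to Reg3g were Cdkn1c, Ephx2, Ppp1r3a and Amotl1, at 0.077, 0.080, 0.097 and 0.11. Cdkn1c, a cell cycle inhibitor, lay 0.079, 0.21 and 1.18 above its control mean in the 3 dexamethasone arrays, so its high array was replicate 3 as well. Nearest to S100a8 were Tln1, Map7d2, Olfr46 and Pkdrej, at 0.012 to 0.024, which are distances among genes that hardly varied.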

How the data were processed

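Total RNA was labelled as biotinylated cRNA on 6 single-colour Affymetrix arrays, per the labels' protocols. The deposited values are log2 expression per probe set, made by the authors with RMA; the submitters' processing notes name R 2.9, limma and RMA without their roles. RMA normally equalises arrays, so each difference is relative to the bulk of genes. Of 20985 probe sets, 19921 had 1 gene symbol, none had several and 1064 were not listed in the platform annotation, and the brightest probe set per symbol was kept (19919 genes). The groups were compared by limma 3.58.1 under R 4.3.3 (lmFit then eBayes, two-sided, unfiltered), with Benjamini-Hochberg adjustment over all 19919 genes and a threshold of 0.05. An exact permutation test of 3 against 3 arrays cannot go below p = 0.1. The number of arrays limits the precision. The script was tested on simulated data. No array batch is named in the labels.

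The members, the 5 lists of related genes and the 6 lists of cell markers were chosen with earlier results of these data known. Genes named are the members, every listed gene past the threshold, up to 3 of smallest p per list and the 4 nearest profiles of Lyz1, Reg3g and S100a8; other listed genes given with values (Atp4a, Atp4b, Itln1, Defa24, Ly6g, Duox1, Duoxa1, Fabp1 and Il22ra1) were chosen after their values were seen. Alternatives were the replicate number as a block, quantile normalization, median centring, a filter that drops the dimmest 40% of genes, a trend and robust prior, array weights, all probe sets, the squamous covariate and each array left out in turn.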

Additional observations from a re-analysis of the deposited data

How the results depend on the processing

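The count of members past the threshold was 1 (Lyz1). It was 2 with the replicate block (Lyz1 and Duox2) and 2 with the squamous covariate (Lyz1, and Reg3g at a limma adjusted p of 0.0498). The count was 3 with array weights (Lyz1, Duox2 and S100a8). With a trend and robust prior it was 0, and Lyz1 had a limma adjusted p of 0.145. Leaving out 1 array gave 0 to 2. With median centring, quantile normalization, the dimmest 40% of genes left out or all probe sets, the count was 1, again Lyz1. The count of 3 related genes (Lcn2, Duoxa2 and S100a10) was 13 with array weights, a setting that called 1776 of all genes against 367, 4 with the squamous covariate (Dmbt1 added) and 2 to 5 with 1 array left out. The replicate numbers carry no stated pairing, and same-numbered arrays did not all deviate together (r across genes of -0.28, 0.35 and 0.23 for numbers 1, 2 and 3), so the block is given only here; it called 220 of all genes. Each member's log2 change stayed within 1 pooled SD of its main value with quantile normalization, array weights and the squamous covariate. In the other settings this could not fail. The block, the prior, the filter and all probe sets leave a member's log2 change as it is. Median centring shifts the log2 change of every gene by the same amount, which was smaller than the pooled SD of each member. Leaving out 1 of 3 arrays cannot move it by 1 pooled SD. The filter of the dimmest 40% left out Reg3b, Reg3g, S100a8, S100a9 and Camp. The causes of these shifts were not tested. Dim probe sets limit what can be said of the Reg3 and calprotectin genes, and no detection calls were used here.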
